A study of Mus musculus with 12 samples.

Results

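Cotl1, Kdelr3, Ndrg2, Ldoc1, Shf, Cpne8 and Tgfbi are 7 mouse genes picked because their RNA levels in EsrrbNeg embryonic stem cells (ESCs) and in epiblast stem cells (EpiSCs) lay on opposite sides of the level in EsrrbHi ESCs. They are 7 of the 8487 named genes, and of the 11089 features (named genes and unnamed probes), that could be tested on 12 expression arrays, 3 arrays per group. The EsrrbHi, EsrrbMed and EsrrbNeg groups came from 1 ESC line, E14Tg2a Esrrb-2a-GFPd-IBIH, in which both Esrrb alleles carry a destabilized GFP reporter. Those cells were grown in serum with LIF, plated at 3000 cells per cm2, cultured for 3 days, and sorted as SSEA-1+ cells with high, medium or no GFP. EpiSCs came from a different line, TNG Esrrb-2a-TdTomato, in which GFP replaces 1 Nanog allele (Nanog+/-) and a red reporter is joined to Esrrb, and were grown in N2B27 with activin and FGF. In every EpiSC comparison, cell state therefore cannot be told apart from line, medium and Nanog allele number. Sorting, described for the ESCs only, and derivation of the EpiSCs from late bud stage embryos are mixed in as well. The study describes the arrays of sorted ESCs as coming from independent experiments. No source says so of the EpiSC arrays, whose spread may be technical.

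Esrrb encodes an orphan nuclear receptor of the naive pluripotency network, which is active in ESCs and turned off in primed cells such as EpiSCs. Cells that leave the naive state shut down naive factors and begin to express genes of the early post-implantation epiblast. The 7 genes have unlike jobs. Cotl1 encodes coactosin-like protein, which binds actin filaments, and Shf encodes an adaptor with an SH2 domain that in human cells was found to bind the PDGF receptor. Kdelr3 encodes a receptor that returns escaped proteins from the Golgi to the endoplasmic reticulum. Ndrg2 belongs to the N-myc downstream-regulated family, and Cpne8 encodes a copine, a protein that binds membrane phospholipids when calcium is present. Tgfbi encodes a secreted matrix protein with fasciclin domains that binds integrins and is known as a target of TGF-beta. Ldoc1 is an X-linked gene derived from the gag gene of a retrotransposon.

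The genes lie on 6 chromosomes of GRCm38.p6, with only Kdelr3 and Cpne8 sharing 1. Cotl1 spans chr8:119809214-119840579, Kdelr3 spans chr15:79516408-79527739, Ndrg2 spans chr14:51905271-51914004 and Ldoc1 spans chrX:61709611-61710950. Shf spans chr2:122348892-122369147, Cpne8 spans chr15:90487481-90679388 and Tgfbi spans chr13:56609586-56639359.

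The promoters of the gene with the widest EpiSC change upward, Tgfbi, and of the gene with the widest EpiSC change downward, Ldoc1, are shown because these genes mark the ends of the 2 directions. Each sequence is the plus strand from RefSeq (GRCm38.p6), 250 bases before to 50 bases after the start, with CpG dinucleotides in capitals.
Tgfbi, chr13:56609336-56609635: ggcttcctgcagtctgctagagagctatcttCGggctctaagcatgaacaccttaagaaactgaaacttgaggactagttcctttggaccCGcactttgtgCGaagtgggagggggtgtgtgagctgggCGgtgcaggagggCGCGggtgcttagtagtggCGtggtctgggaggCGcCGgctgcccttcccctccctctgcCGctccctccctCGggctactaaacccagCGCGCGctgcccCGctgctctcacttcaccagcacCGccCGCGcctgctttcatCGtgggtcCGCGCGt
Ldoc1, chrX:61709361-61709660: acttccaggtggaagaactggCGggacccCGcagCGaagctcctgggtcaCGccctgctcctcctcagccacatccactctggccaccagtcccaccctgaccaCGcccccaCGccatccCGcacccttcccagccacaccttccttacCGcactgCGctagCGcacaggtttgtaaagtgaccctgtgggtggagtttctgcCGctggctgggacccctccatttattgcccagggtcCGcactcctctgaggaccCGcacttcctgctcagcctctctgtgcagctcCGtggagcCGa
The Tgfbi window held 22 CpGs at 63.3% GC and the Ldoc1 window held 15 at 64.3%. RefSeq gave 9 such windows for 6 of the genes (Cotl1 is not shown here), with 11 to 36 CpGs and 62.3 to 80.3% GC, against medians of 7 CpGs and 52.7% GC over all 32851 promoters. The most CpG-rich was the second start of Shf. In CpG count the 9 windows lay at the 60.4th to 94.4th percentile of all promoters, which include those of genes not tested here. Searched on both strands, 0 of the 9 windows held the orphan nuclear receptor half-site AAGGTCA (4.72% of all promoters did), the octamer ATGCAAAT (1.74%) or the AP-1 site TGACTCA (5.2%).

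Levels are normalized log2 intensities, computed from bead intensities after background correction. Median intensities, which lie near background, were 82.9 to 97.9, and 13333 to 15393 of 45281 probes were detected (detection p of 0.01 or less). Brightness differed more, with a 95th percentile of 403 to 974 over arrays, highest on replicate 1 of EsrrbMed, EsrrbNeg and EsrrbHi. After normalization, replicates correlated at 0.987 to 0.996. Esrrb itself differed from EsrrbHi by −0.69 in EsrrbMed, −6.32 in EsrrbNeg and −5.53 in EpiSC on the log2 scale. The arrays sat on 2 chips: replicates 1 and 2 of each ESC group on chip 1, and replicate 3 of each ESC group and all EpiSC arrays on chip 2. The 7 genes had 14 probes, of which 10 passed the filter (detected on all arrays of at least 1 group), and the brightest passing probe stood for each gene. Except for Cotl1, at the 73.5th percentile of level among tested features, the genes were dim, at the 17.6th (Shf) to the 35.5th (Ldoc1). Raw Cotl1 intensities were 1.77 to 6.76 times the intensity at which a probe counted as detected on the same array, and those of the other 6 genes 0.933 (Shf) to 2.36 (Ldoc1) times.

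A feature was called where limma gave a Benjamini-Hochberg adjusted p of 0.05 or less and a fold of 1.5 or more. Against EsrrbHi, 9.06% of features were called lower and 9.06% higher in EsrrbNeg, and 18.5% were called higher and 14.9% lower in EpiSC. Of 1543 features called in both, 1524 went the same way, and 19 (0.171% of those tested) went opposite ways. The 7 genes are 7 of the 14 named features among those 19, and were selected on those 2 changes, so their EsrrbNeg and EpiSC changes are given as a description. Cotl1, Kdelr3, Ndrg2, Shf and Tgfbi were lower in EsrrbNeg and higher in EpiSC, and Ldoc1 and Cpne8 the reverse. The smaller of the 2 changes ran from 0.61 (Tgfbi) to 0.77 (Cotl1) in the genes, just above the log2 limit of 0.585. The nearest named features outside that limit were Stx3 (0.57), Gstt2 (0.57) and Kcnk1 (0.57).

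**Figure D1:**
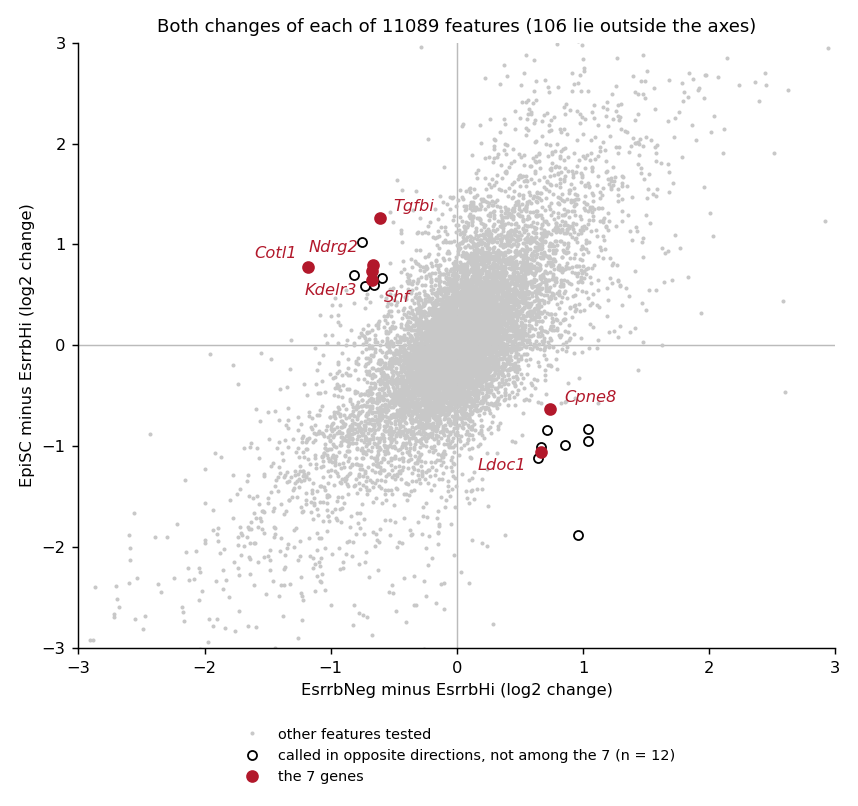
Each point is 1 tested feature, with its log2 change in EsrrbNeg against EsrrbHi on the x axis and in EpiSC against EsrrbHi on the y axis (both fits share the EsrrbHi arrays). The 7 genes (red) and 12 other features called in opposite directions (open circles) lie in the upper left and lower right quadrants, and 106 features lie outside the axes.

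Among the other 12 features, the largest by the smaller change and higher in EsrrbNeg were Rab25, a GTPase of epithelial recycling endosomes (0.96 in EsrrbNeg, −1.88 in EpiSC), Lrp2, an endocytic receptor (1.04 and −0.95), and Gdf1, a TGF-beta family ligand (0.86 and −0.99). In the other direction Zeb1, a repressor of epithelial genes (−0.75 and 1.03), and Evx1, a homeobox gene of the primitive streak (−0.81 and 0.69), ranked above 4 of the 5 genes of that direction, Cotl1 being the exception. Zeb1 and Evx1 were each detected on 1 of 3 EsrrbNeg arrays.

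Cotl1 had the widest span of the 7, 3.88-fold between EsrrbNeg and EpiSC. Its level was 8.38, 8.33 and 8.35 in EsrrbHi replicates 1 to 3, and 8.04, 8.13 and 7.99 in EsrrbMed. In EsrrbNeg it was 7.17, 7.01 and 7.34, and in EpiSC 9.25, 9.06 and 9.19. The 4 groups did not overlap anywhere, in the order EsrrbNeg, EsrrbMed, EsrrbHi, EpiSC. Group means were 7.17 ± 0.17, 8.05 ± 0.07, 8.35 ± 0.03 and 9.16 ± 0.09 (SD, n = 3). EsrrbNeg minus EsrrbHi was −1.18 ± 0.10 (SE) and EpiSC minus EsrrbHi was 0.77 ± 0.11. All 12 arrays detected Cotl1, whose residual SD, 0.105, was at the 27.5th percentile of all features. In a bulk sample such a difference cannot tell fewer expressing cells from less RNA per cell, which holds for every gene here.

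Tgfbi had the largest EpiSC change of the 7 with all arrays in the fit. Its level was 6.07, 5.63 and 5.13 in EsrrbHi, and 5.67, 5.36 and 5.50 in EsrrbMed. In EsrrbNeg it was 4.93, 4.77 and 5.31, and in EpiSC 7.0, 6.49 and 6.93. EpiSC lay above every ESC array, while EsrrbHi replicate 3 fell below EsrrbNeg replicate 3. EsrrbNeg minus EsrrbHi was −0.61 ± 0.21 and EpiSC minus EsrrbHi was 1.26 ± 0.25, and the span from EsrrbNeg to EpiSC was 3.64-fold. Tgfbi was detected on all 12 arrays, with a residual SD at the 98.6th percentile of features. EsrrbHi replicates 1 and 3 moved its values: without replicate 3 the EpiSC change was 0.74 and the EsrrbNeg change −0.92, and without replicate 1 the EsrrbNeg change was −0.37. Its opposite call was lost in 4 of the 12 fits that left out 1 array (EsrrbHi or EsrrbNeg replicate 1 or 2).

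Ndrg2 was the other dim gene detected on every array. Its level was 5.74, 5.38 and 5.52 in EsrrbHi, and 5.54, 5.59 and 5.27 in EsrrbMed. EsrrbNeg arrays read 4.70, 4.75 and 5.19, and in EpiSC 6.08, 6.58 and 6.45. EsrrbHi and EsrrbMed overlapped, EsrrbNeg lay below both and EpiSC above both. The change from EsrrbHi to EsrrbNeg was −0.67 ± 0.16 and EpiSC minus EsrrbHi was 0.80 ± 0.19. The opposite call was lost without EsrrbHi replicate 1 or EsrrbNeg replicate 1.

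Kdelr3 was the noisiest of the 7, with a residual SD at the 98.9th percentile. Its level was 5.80, 5.37 and 5.22 in EsrrbHi, and 5.28, 5.14 and 4.63 in EsrrbMed. EsrrbNeg arrays read 4.86, 4.28 and 5.22, and in EpiSC 6.39, 6.0 and 5.99. EpiSC lay above every ESC array, and the 3 ESC groups overlapped each other. EsrrbMed replicate 3 and EsrrbNeg replicate 2 did not detect it. The change from EsrrbHi to EsrrbNeg was −0.67 ± 0.23 and EpiSC minus EsrrbHi was 0.74 ± 0.27. Without EsrrbNeg replicate 2 the EsrrbNeg change was −0.38, and without EsrrbNeg replicate 3 it was −1.05. Leaving out 1 array ended the opposite call in 7 of 12 fits (any EsrrbHi array, EsrrbNeg replicate 1 or 2, EsrrbMed replicate 3, EpiSC replicate 1).

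Shf was the dimmest of the 7 and was detected on 9 arrays. Its level was 5.41, 5.56 and 4.66 in EsrrbHi, and 4.93 on each EsrrbMed array. EsrrbNeg arrays read 4.79, 4.54 and 4.28, with only replicate 1 detected, and in EpiSC 5.45, 5.38 and 5.93. EsrrbHi replicate 3, also not detected, fell below EsrrbNeg replicate 1, and the other EsrrbHi arrays overlapped EpiSC. The change from EsrrbHi to EsrrbNeg was −0.68 ± 0.17 and EpiSC minus EsrrbHi was 0.65 ± 0.20. Without EsrrbHi replicate 3 the EpiSC change was 0.29, and with replicate number as a block in place of chip it was 0.38, neither called. The opposite call was lost in 3 of the 12 fits that left out 1 array (EsrrbHi replicate 2 or 3, EpiSC replicate 3).

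Ldoc1 and Cpne8 ran the other way, highest in EsrrbNeg and lowest in EpiSC. Ldoc1 was at 5.99, 5.88 and 5.81 in EsrrbHi, and at 6.34, 6.18 and 6.01 in EsrrbMed. In EsrrbNeg it was at 6.74, 6.82 and 6.12, and in EpiSC at 4.49, 4.94 and 4.39, where only replicate 2 was detected. EpiSC lay below all ESC arrays, and EsrrbNeg lay above EsrrbHi but overlapped EsrrbMed through replicate 3. EsrrbNeg minus EsrrbHi was 0.67 ± 0.14 and EpiSC minus EsrrbHi was −1.05 ± 0.17, a span of 3.30-fold. Cpne8 was at 5.16, 5.31 and 5.45 in EsrrbHi, and at 5.21, 5.46 and 5.32 in EsrrbMed. In EsrrbNeg it was at 6.05, 6.29 and 5.81, and in EpiSC at 4.68, 4.70 and 4.52, the last not detected. EsrrbNeg lay above and EpiSC below all other arrays, while EsrrbHi and EsrrbMed overlapped. EsrrbNeg minus EsrrbHi was 0.74 ± 0.13 and EpiSC minus EsrrbHi was −0.64 ± 0.15. Without EsrrbHi replicate 3 the EpiSC change was −0.41, and the opposite call was lost then and without EpiSC replicate 3. Leaving out any 1 array did not end that of Ldoc1 or Cotl1.

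**Figure D2:**
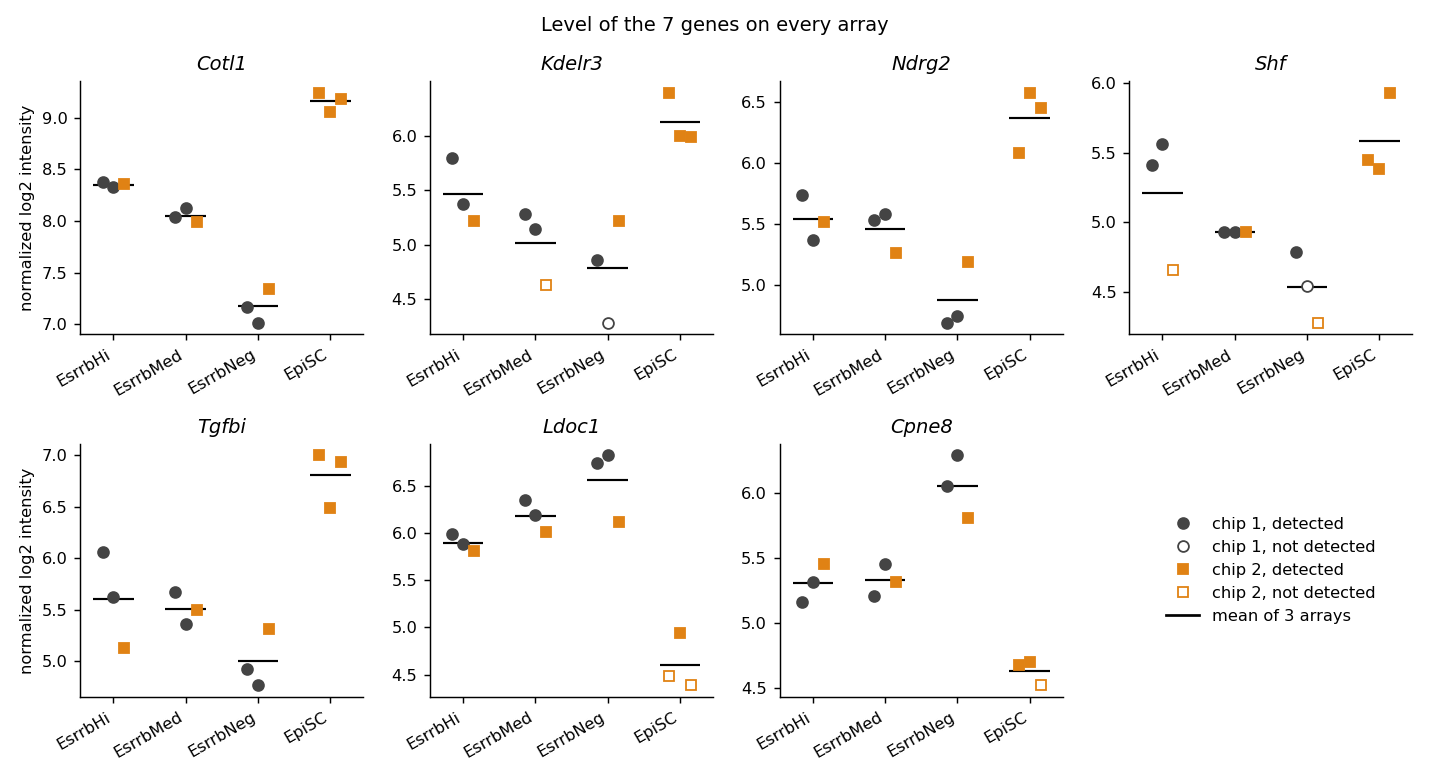
Normalized log2 intensity (y axis, a separate scale per gene) of the 7 genes on each of the 12 arrays by group (x axis). Circles are chip 1 and squares chip 2, open symbols are arrays with a detection p above 0.01, and lines are means of 3 arrays. EpiSC lies to 1 side of every EsrrbNeg array in all 7 genes. The genes were picked for opposite changes in these groups, so nothing is read from that.

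Over the 7 genes, EsrrbNeg and EsrrbHi did not overlap in 4 (Cotl1, Ndrg2, Ldoc1 and Cpne8). Among all features, 20.7% lay wholly lower and 25.2% wholly higher in EsrrbNeg. EpiSC and EsrrbHi did not overlap in 6, all but Shf, against 33.4% of features wholly higher and 31.5% wholly lower in EpiSC. These counts follow from how the genes were picked, and nothing is read from them.

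EsrrbMed against EsrrbHi is the comparison on which the genes were not picked, although it shares the EsrrbHi arrays with those that were. Of the 7 genes, 0 were called, against 1.18% of all features (131, with 0.478% higher and 0.703% lower), while 1835 features had an unadjusted limma p under 0.05. Cotl1 alone of the 7 reached an unadjusted p under 0.05: EsrrbMed minus EsrrbHi was −0.30 ± 0.10, with a 95% interval from −0.51 to −0.09 and an adjusted p of 0.119. The 3 EsrrbMed arrays were all below the 3 EsrrbHi arrays. The interval for Kdelr3 ran from −0.94 to 0.06 around −0.44 (adjusted p 0.373), and that for Ldoc1 from −0.03 to 0.60 around 0.29 (adjusted p 0.352). Shf (−0.28), Tgfbi (−0.10), Ndrg2 (−0.08) and Cpne8 (0.02) had adjusted p from 0.458 to 0.972. EsrrbMed and EsrrbHi did not overlap in 2 of the 7, Cotl1 and Ldoc1, against 19.6% of all features.

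The median EsrrbMed change was −0.28 over the 5 genes lower in EsrrbNeg and 0.15 over the 2 genes higher there, against 0.01 over all features. That split uses the EsrrbNeg direction and the same EsrrbHi arrays, so nothing is read from its signs. Set against EsrrbHi of the same replicate number, 17 of 21 EsrrbMed differences had the sign of the mean, the exceptions being Ndrg2 in replicate 2 (0.21) and Shf (0.27), Tgfbi (0.37) and Cpne8 (−0.13) in replicate 3. As a share of the EsrrbNeg change, the EsrrbMed change ranged from 2.65% for Cpne8 and 12.3% for Ndrg2, through 25.5% for Cotl1, to 65.8% for Kdelr3. Set directly against EsrrbMed, with no test, EsrrbNeg differed by −0.88 in Cotl1, 0.72 in Cpne8 and −0.59 in Ndrg2, and by less in the other 4 genes. EpiSC minus EsrrbMed was 0.65 or more in size in all 7 genes, from −0.65 (Cpne8) to 1.36 (Tgfbi), and no EpiSC array overlapped EsrrbMed. The genes were picked on their EpiSC change, and no share over all features is given here, so nothing is read from that separation.

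The difference between EsrrbNeg and EsrrbHi was smaller in replicate 3, the pair on chip 2, than in replicates 1 and 2 in each of the 7 genes. Both arrays of the pair entered into it. In Shf the EsrrbNeg array was the lowest of its group and the EsrrbHi array lay below the other EsrrbHi arrays, in Tgfbi and Kdelr3 EsrrbHi was low and EsrrbNeg high, and in Ldoc1, Cpne8, Ndrg2 and Cotl1 the EsrrbNeg array was the one nearest EsrrbHi. For Kdelr3, EsrrbNeg minus EsrrbHi was −0.93, −1.09 and 0.00 in replicates 1, 2 and 3. For Tgfbi it was −1.14, −0.86 and 0.18. Kdelr3 thus had no difference and Tgfbi the opposite sign within chip 2. For Cotl1 it was −1.21, −1.31 and −1.01, with 1 pair on chip 2. The replicate 3 difference was −0.34 in Ndrg2, −0.38 in Shf, 0.31 in Ldoc1 and 0.36 in Cpne8, in the direction of the mean. Over 21 such differences, 19 had the sign of the mean. Against EsrrbHi replicate 3, on the same chip, all 21 EpiSC values had the sign of the mean. They ran from 0.71 to 0.89 in Cotl1 and from 1.36 to 1.87 in Tgfbi. The genes were picked on both changes, and these EpiSC values all share EsrrbHi replicate 3. Nothing is therefore read from the 2 sign counts or from the agreement of the Cotl1 pairs.

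**Figure D3:**
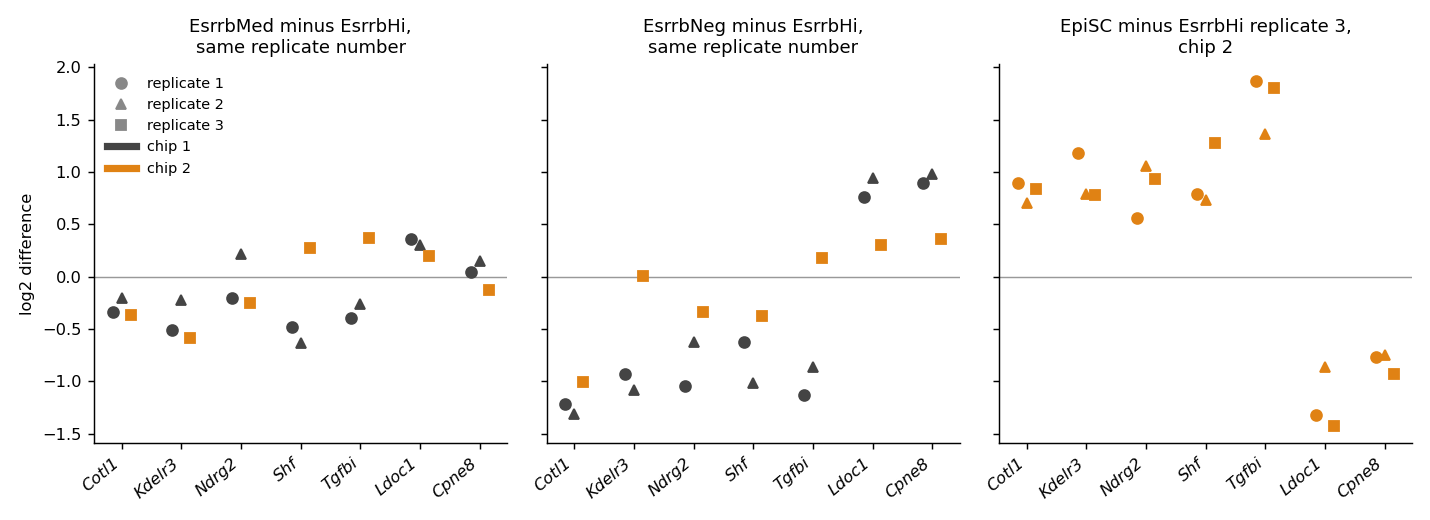
Log2 differences from EsrrbHi (y axis) for each of the 7 genes (x axis), for EsrrbMed and EsrrbNeg against the EsrrbHi array of the same replicate number and for EpiSC against EsrrbHi replicate 3. In the EsrrbNeg panel the replicate 3 square (chip 2, orange) is nearest or past 0 for every gene, at 0.00 for Kdelr3 and 0.18 for Tgfbi.

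Markers of some other states, but not of all, were higher on EsrrbNeg replicate 3 than on replicates 1 and 2. The summed linear level of the 5 measured primitive streak markers (of 12 listed) was 266.5 on EsrrbNeg replicate 3, against 110.3 and 107.1 on replicates 1 and 2, 128.1 to 137.9 in EsrrbHi and 771.5 to 807.7 in EpiSC. Among the 5 summed, Eomes, Gsc, Lhx1 and Fgf8 passed the filter only through EpiSC, so nothing is read from the EpiSC sum. Mixl1, Mesp1, Wnt3, Cdx1 and Foxa2 were detected on no EsrrbNeg array. For the 8 measured fibroblast and mesenchyme markers (of 16) the sum was 853.2 on that array, against 568.7 and 605.1. Sums of extraembryonic endoderm (581.2, against 494.2 and 471.6) and neural markers (182.7, against 147.3 and 142.9) were also highest there. The neural sum held only Nes and Map2. Trophectoderm markers summed to 727.1, against 832.2 and 611.3, and blood cell markers to 529.5, against 550.6 and 596.6. The part of such states in the values of replicate 3 was not tested, nor can it be told apart from that of the chip. Without EsrrbNeg replicate 3, all 7 genes were again called in opposite directions, the Kdelr3 EsrrbNeg change was −1.05 in place of −0.67, and the number of features called in opposite directions was 47 in place of 19.

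The opposite calls of 6 of the 7 genes were lost when the intensities were treated in other ways. With a larger offset (normexp with offset 50), with quantile or median scaling and no background correction, or on the authors' log2 table, Cotl1 alone of the 7 was called in opposite directions. The offset 50 setting also estimated background from the intensities alone, while the main one inferred negative control values from the detection p. Median scaling also dropped the quantile step, and the authors' table also holds a batch correction and was fitted with no chip term. The Cotl1 EsrrbNeg change was −0.87 to −0.97 and its EpiSC change 0.66 to 0.71 in those 4 settings. In the other 6 genes both changes kept their sign in those settings but shrank. Shf in EpiSC, for example, was 0.30, 0.22, 0.04 and 0.13 in place of 0.65, and Kdelr3 in EpiSC was 0.40, 0.31, 0.15 and 0.29 in place of 0.74. Over 21 alternative settings that gave both changes, Cotl1 was called in opposite directions in 21, Ldoc1 in 16, Ndrg2 and Cpne8 in 14 each, Tgfbi in 11, Shf in 10 and Kdelr3 in 8.

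**Figure D4:**
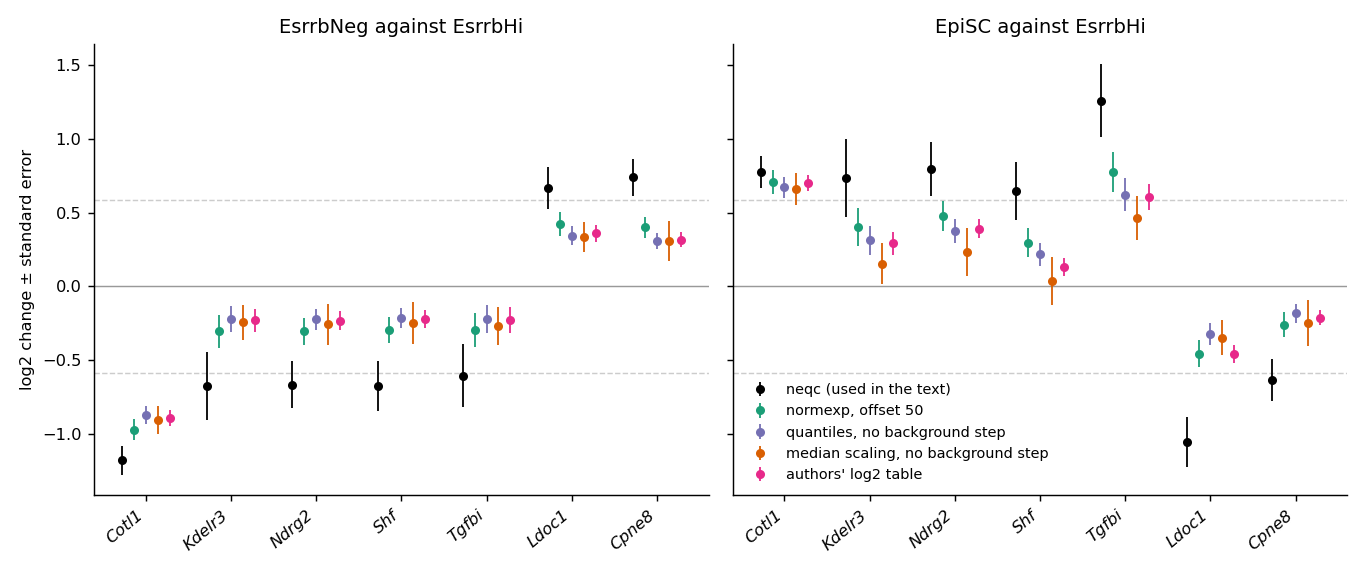
Log2 change against EsrrbHi with its standard error (y axis) for the 7 genes (x axis) under 5 treatments of the intensities, for EsrrbNeg (left) and EpiSC (right). Dashed lines mark the 1.5-fold limit (0.585). Cotl1 stays beyond the lines under all 5, and the other 6 genes lie nearer 0 under the 4 alternatives.

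Second probes gave smaller changes in EsrrbNeg and EpiSC. Of the 5 genes with more than 1 probe, Ndrg2, Shf and Cpne8 had a second probe that passed the filter. The second Ndrg2 probe (ILMN_3001650) gave −0.25 in EsrrbNeg and 0.19 in EpiSC, and the second Shf probe (ILMN_3102948) −0.35 and 0.07. The second Cpne8 probe (ILMN_3072337) gave 0.69 in EsrrbNeg, close to the 0.74 of the first, but −0.03 in EpiSC. It was detected on 4 of 12 arrays, 3 of them EsrrbNeg and 0 of them EsrrbHi, so a level below that of EsrrbHi could not be measured by it. In EsrrbMed, where no main probe was called, the second probes gave larger changes: −0.48 against −0.28 for Shf, 0.29 against 0.02 for Cpne8 and −0.11 against −0.08 for Ndrg2. Of the 4 probes that did not pass, 3 (2 of Cpne8 and ILMN_2727663 of Tgfbi) were detected on 0 arrays and the last (ILMN_1226661 of Ldoc1) on 1. Cotl1 and Kdelr3 had a single probe each.

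Across the 12 arrays, with chip removed, the correlations between pairs of the 7 genes were positive within a direction, down to 0.797 (Kdelr3 and Shf), and negative between directions, down to −0.968 (Cotl1 and Cpne8), as the choice of genes fixes. The named genes most like each of them in the same 12 values were H2-Ke6 (r = 0.984) and Cox18 (0.981) for Cotl1, Spsb1 (0.961) and Rnf26 (0.959) for Kdelr3, and Akr7a5 (0.979) and Sirt3 (0.976) for Ndrg2. For Shf they were Nck1 (0.986) and Bloc1s5 (0.952), and for Tgfbi Ccnd2 (0.982) and again Spsb1 (0.975). For Ldoc1 they were Ubxn8 (0.983) and Rab15 (0.979), and for Cpne8 Gstt2 (0.985) and Bspry (0.972). Ccnd2, a G1 cyclin, was at −0.53 in EsrrbNeg and 1.32 in EpiSC. Cox18, by contrast, had values of only −0.32 and 0.26, so likeness over arrays is not likeness in size.

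Of the relatives and partners of the 7 genes described next, 0 were called in opposite directions in EsrrbNeg and EpiSC, as were only 0.171% of all features, so the count does not set the 7 genes apart. Beside the list counts below, 9.06% of all features were called higher and 9.06% lower in EsrrbNeg. In EpiSC 18.5% were called higher and 14.9% lower. Among 13 other ADF/cofilin family members and close actin binders, 1 was called higher and 2 lower in EsrrbNeg, and 2 higher and 3 lower in EpiSC. Nothing is read from those counts. Twf2, a twinfilin that caps actin, fell in EsrrbNeg (−1.14 ± 0.10) and further in EpiSC (−2.10 ± 0.11), and Tmsb4x, which sequesters actin monomers, fell in both (−0.78 ± 0.13 and −0.81 ± 0.14). The actin-severing cofilin Cfl1 had values of 0.15 and 0.18 and was not called. The limma adjusted p was 9.78e-07 and 1.01e-08 for Twf2 and 0.000238 and 0.000324 for Tmsb4x. The median over the 13 was 0.16 in EsrrbNeg and −0.03 in EpiSC, against 0.03 and 0.01 over all features.

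Of 14 measured endoplasmic reticulum folding and retrieval partners of Kdelr3, 0 were called in EsrrbNeg, although adjusted p was 0.05 or less for several below 1.5-fold. In EpiSC, Surf4, a cargo receptor of the early secretory pathway, rose (0.89 ± 0.13) and the chaperones and folding factors Calr (−0.92 ± 0.15), Sdf2l1 (−0.87 ± 0.15) and Pdia4 (−0.76 ± 0.11) fell. Kdelr2, its close relative, was at 0.44 in EsrrbNeg and 0.28 in EpiSC. The medians over the 14 were 0.24 and 0.01. In the NDRG family Ndrg1, a gene induced by hypoxia and stress, fell in EsrrbNeg (−0.92 ± 0.30, adjusted p 0.0257) and was at 0.20 ± 0.35 in EpiSC, while Ndrg3 was at −0.06 and 0.45, neither called.

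Other genes derived from retrotransposon gag sequences include several that, like Ldoc1, are on the X chromosome. Of 10 measured, 4 were called higher in EsrrbNeg and 6 in EpiSC (9.06% and 18.5% of all features), and 0 were called lower in either. Among the higher calls, Peg10 and Rtl8c passed the filter only through EpiSC and Rtl1 only through EsrrbNeg. Nothing is read from the calls of these genes. Zcchc18 rose in both (1.19 ± 0.11 and 2.42 ± 0.12), as did Rtl8a (0.98 ± 0.20 and 3.18 ± 0.23) and Rtl6 (0.74 ± 0.14 and 1.00 ± 0.16). Ldoc1 itself was lower in EpiSC. In the copine family, 2 relatives of Cpne8 were measured, of which Cpne2 was called higher in both (detected on 1 of 3 EsrrbHi arrays) and Cpne9 fell in both (−1.88 ± 0.13 and −2.06 ± 0.16). Of 6 SHB family members and PDGF receptor partners, Pik3r3, a regulatory subunit of PI3-kinase, rose in both (1.00 ± 0.12 and 0.73 ± 0.14) and the other 5 were not called.

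For Tgfbi the lists followed its known input and its binding partners. Over all features, 9.06% were called higher and 9.06% lower in EsrrbNeg, and 18.5% higher and 14.9% lower in EpiSC. Of 5 other fasciclin-domain proteins and integrins, 2 were called higher in EsrrbNeg and 4 in EpiSC, 0 lower. Itga3, the alpha subunit of a laminin receptor, rose in both (1.28 ± 0.20 and 1.55 ± 0.23), and the beta subunits Itgb5 (1.29 ± 0.11) and Itgb1 (0.84 ± 0.12) rose in EpiSC. Of 13 other TGF-beta and activin targets, 4 were called higher and 1 lower in EsrrbNeg, and 3 higher and 2 lower in EpiSC. Lefty1, a Nodal antagonist, rose in both (0.75 ± 0.22 and 2.14 ± 0.26), as did Ccn1, a matricellular protein (1.39 ± 0.17 and 1.47 ± 0.19). Tgif1, a repressor of SMAD output, fell in both (−0.59 ± 0.12 and −0.59 ± 0.14). Other targets had opposite signs. Lefty2 (−0.36 and 0.61) and Ski (−0.03 and 0.04) had the signs of Tgfbi. Id1 (0.86 and −0.56), Id2 (0.29 and −0.70) and Id3 (0.41 and −0.13) had the reverse. Of these, only Id2 was called, lower in EpiSC. Of 11 ligands, receptors and SMADs, 1 was called higher in EsrrbNeg, and 6 higher and 1 lower in EpiSC. Among those 6, Tgfb1, Tgfb2, Tgfbr2 and Tgfbr3 passed the filter only through EpiSC. Nothing is therefore read from that count or from the EpiSC median of the list. Smad3, which carries the activin signal to the nucleus, rose in both (0.82 ± 0.09 and 1.85 ± 0.11). The median of the targets was 0.35 in EsrrbNeg and 0.26 in EpiSC, and of the ligands, receptors and SMADs 0.12 and 0.60.

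Fibroblast and mesenchyme markers were also higher in EpiSC, where Tgfbi was highest. Of the 8 measured, 7 were called higher there, among them Vim (1.77), and 1 (Fn1, −1.43) lower, against 18.5% and 14.9% of all features. Col1a1, Col6a1 and Dcn, among the 7, passed the filter only through EpiSC, so nothing is read from their calls or their part in the EpiSC sum. The sum was 608.9 to 656.5 in EsrrbHi, 690 to 753.1 in EsrrbMed and 1644 to 4009 in EpiSC, where Col1a2, Col5a2, Pdgfra, Pdgfrb, Postn and S100a4 were detected on no array. The highest sum, 4009, was on EpiSC replicate 1, and Tgfbi on that array (7.0) was near replicate 3 (6.93), whose sum was 1644. The part of such cells in the Tgfbi level was not tested. All 5 measured streak markers were called higher in EpiSC. Eomes, Gsc, Lhx1 and Fgf8 passed the filter only through EpiSC, so nothing is read from that count. Mixl1, Mesp1 and Tbx6 were detected on no EpiSC array. Cotl1 is abundant in blood cells, and of 11 blood cell markers Ptprc, Spi1, Lcp1, Tyrobp, Cd52, Gata1 and Fcer1g were detected on no array of any group. The 2 measured, Coro1a and Laptm5, summed to 1304 to 1359 in EsrrbHi, 529.5 to 596.6 in EsrrbNeg and 144.1 to 195.8 in EpiSC. Laptm5 fell in both (−1.45 and −3.47), while Coro1a rose in EsrrbNeg (0.77 ± 0.11) and was at 0.16 ± 0.12 in EpiSC. The part of blood cells in the Cotl1 level was not tested.

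The other lists describe the cells in which the 7 genes were measured. Again, 9.06% of all features were called higher and 9.06% lower in EsrrbNeg, and 18.5% higher and 14.9% lower in EpiSC. Of 11 measured naive factors, 10 were called lower in EsrrbNeg and 11 in EpiSC. Of 9 primed epiblast genes, 9 were called higher in EsrrbNeg and 7 in EpiSC. The naive factor Prdm14 passed the filter only through EsrrbHi, and the primed gene Lef1 only through EsrrbNeg. Of 7 trophectoderm markers, 3 were called higher (Cdx2, Krt8 and Krt18) and 1 lower (Tfap2c, −1.92 ± 0.14) in EsrrbNeg, with a median change of 0.61, and 5 higher and 1 lower in EpiSC, with a median of 2.23. Their summed level was 1181 to 1504 in EsrrbHi, 611.3 to 832.2 in EsrrbNeg and 1375 to 1640 in EpiSC (7 of 12 measured and Tfap2c among them, with Elf5 and Hand1 detected on no array). Among the 5 called higher in EpiSC, Eomes and Krt7 passed the filter only through EpiSC. Extraembryonic endoderm markers summed to 376.4 to 464 in EsrrbHi, 471.6 to 581.2 in EsrrbNeg and 433.4 to 689.9 in EpiSC (4 of 16 measured, with Gata4, Sox17, Afp, Ttr, Apoa1 and Cubn detected on no array). The 2 measured neural markers (of 12), Nes and Map2, summed to 83.9 to 107 in EsrrbHi, 143 to 183 in EsrrbNeg and 203 to 224 in EpiSC. They went opposite ways: Nes was called higher in both (2.07 and 2.66), while Map2 was at −0.365 and −0.292, not called. The higher sums are thus those of Nes alone, which was detected on 0 of 3 EsrrbHi arrays. Sox1 and Pax6 were detected on no array.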

How the data were processed

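Illumina MouseWG-6 v2 BeadChips were hybridized with RNA of 12 samples (100 ng labelled per array). The deposited intensity values are bead summaries that the authors read with beadarray, on a linear scale with no background correction or normalization. A second kind of deposited column gives a detection p-value per probe, computed by the authors against negative control beads. The deposited log2 table holds the authors' values after quantile normalization and ComBat batch correction, and was used only as an alternative. Tool versions of the authors are not given in the sources used here.

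Intensities were background corrected, given an offset of 16 and quantile normalized with neqc (limma 3.58.1, R 4.3.3). The 14834 probes detected (p of 0.01 or less) throughout at least 1 group were retained, and the probe with the highest mean stood for each gene. Of 45281 probes, 32093 had 1 gene name, 16 several and 13172 none, and 99.82% of gene identifiers were found in RefSeq. lmFit with group and chip over all 12 arrays, followed by eBayes, gave moderated tests with Benjamini-Hochberg adjustment over 11089 features. Deposited values were grouped by the labels. Arrays carry no read depth, and 3 per group limit the precision. The script was tested on simulated data. Figures were drawn with matplotlib 3.10.9.

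The 7 genes, the gene lists and the tests were chosen with earlier results of these data known. Members' EsrrbNeg and EpiSC changes therefore carry no p. Named genes were the members, the largest features called in opposite directions and the 2 genes most correlated with each member. From the lists they were called genes or, where none was called, the one with the highest level. Not every called list gene is named. Cfl1, Kdelr2, Ndrg3, Kcnk1, Stx3, Lefty2, Ski, Id1, Id3, Map2 and the marker genes named as not detected fall outside that rule and were chosen after their values were seen. The labels' replicate numbers were taken to pair the ESC arrays, from the data alone (number 3 is also chip 2). All 9 correlations between same-numbered arrays of different ESC groups, in deviations from the group means, were above 0.1 (0.238 to 0.555, against −0.462 to 0.227 for different numbers), and on chip 1 alone the difference of replicates 1 and 2 correlated at 0.204 to 0.368 between groups. With chip removed, which makes the replicate 3 deviations cancel over the ESC groups, the same 9 were −0.606 to 0.193 (different numbers −0.455 to 0.343). EpiSC numbers did not pair with ESC numbers (−0.096 to 0.087, chip removed). Alternatives changed background correction, scaling, the filter, the chip term, the replicate block, the arrays fitted and the probe.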

Additional observations from a re-analysis of the deposited data

How the results depend on the processing

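Both directions of all 7 genes held in 20 of 21 alternatives for their main probes. The exception was chip 2 alone, where Kdelr3 (0.002) and Tgfbi (0.18) were not lower in EsrrbNeg. All 7 genes were called in opposite directions in the main analysis, but 1 (Cotl1) with the authors' log2 table, chip 2 only, median scaling, normexp with offset 50 or quantiles without background correction, 4 with no filter, and 4 to 7 with 1 array left out (4 without any 1 EsrrbHi array or EsrrbNeg replicate 1). In the same order of the first 5 settings, features called in opposite directions numbered 4, 2, 3, 6 and 6 (main 19, and 15 to 47 with 1 array left out, the highest without EsrrbNeg replicate 3). EsrrbMed calls numbered 32, 0, 24, 49 and 31 (main 131), 70 with no filter and 56 to 160 with 1 array left out. EsrrbNeg calls numbered 725, 1302, 767, 997 and 745 (main 2010, and 1978 to 2117). EpiSC calls numbered 1670 with the authors' table, 1563 with median scaling, 2132 with offset 50 and 1679 without background correction (main 3707, and 3636 to 3862). The cause was not tested, except that leaving out arrays or a chip leaves fewer arrays.

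Other values also turned direction. In EsrrbMed they were Cpne8 with chip 2 only (−0.132), median scaling (−0.016) or probe ILMN_1236653 (−0.031), Ndrg2 with chip 1 only (0.004), Shf with chip 2 only (0.273), and Tgfbi with chip 2 only (0.367) or probe ILMN_2727663 (0.007). With 1 array left out, the EsrrbMed change ranged from −0.07 to 0.154 in Cpne8, −0.167 to 0.087 in Ndrg2 and −0.409 to 0.136 in Tgfbi. In EpiSC they were Cpne8 by probe ILMN_1241310 (0.069) and Ldoc1 by probe ILMN_1226661 (0.029). Cotl1 in EsrrbMed stayed between −0.36 and −0.23, with limma adjusted p from 0.0171 to 0.946 over its alternatives. Median scaling put the median of all features at −0.01 in EsrrbNeg and −0.07 in EpiSC, against 0.03 and 0.01.

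With the replicate block in place of chip, 136 features were called in EsrrbMed, 2011 in EsrrbNeg and 3830 in EpiSC. In opposite directions 28 were called, among them 6 of the 7 genes (not Shf, at 0.38 in EpiSC). That fit also blocked EpiSC arrays by number, although those numbers did not pair with ESC numbers. It held no chip term, although all EpiSC arrays were on chip 2. Its EpiSC and opposite-direction counts are thus no paired check. The block changed no other call of the 7 genes. Over ESC arrays alone it gave 152 calls in EsrrbMed and 2020 in EsrrbNeg. Signal near background limits 6 of the 7 genes: their brightest array read at most 2.36 times the detection limit.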
